A study of Mus musculus with 15 samples.

Results

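Fos, Fosb, Junb, Egr1, Arc, Npas4, Nr4a1, Nr4a2, Nr4a3 and Vgf are genes that neurons transcribe within minutes to hours of being activated. These 10 genes were chosen by name for that property, with earlier results of these data known. All 10 were listed in each of the 15 count tables, which hold 55341 genes for the mice fed propylthiouracil and 48321 genes for the other mice, with 46380 symbols in all tables. The question was whether they were lower after thyroid hormone injection and higher in mice with a dominant negative thyroid hormone receptor. RNA was sequenced from fluorescent nuclei sorted from single frozen cortices of adult mice, where PvCre, active in parvalbumin (Pv) neurons, switches on the ROSA-tomato-lox reporter. Every mouse carried PvCre and ROSA-tomato-lox. PTU_TH mice (n = 4, Thra+/+) ate propylthiouracil, an inhibitor of thyroid hormone synthesis, in food pellets for 2 weeks and were given thyroid hormone into the peritoneum 24 h before dissection. PTU mice (n = 3, Thra+/+) had the diet alone. Mut mice (n = 4) were ThraAMI/+ littermates of the controls, expressing a dominant negative TRalpha1 from a floxed allele, and were neither fed the drug nor injected. Ctrl mice (n = 4) were untreated and Thra+/+. The labels name no vehicle injection for PTU mice, so hormone and injection cannot be told apart.

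Immediate early genes are transcribed from factors already present in the cell, without new protein synthesis. In neurons, calcium entry and cAMP signalling lead to phosphorylation of the factor CREB, which binds the cAMP response element, and of partners of serum response factor. The first products include the AP-1 subunits Fos, Fosb and Junb, the zinc finger factor Egr1, the neuron-restricted factor Npas4 and the orphan nuclear receptors Nr4a1, Nr4a2 and Nr4a3. These factors act on later genes. Arc, a cytoskeletal protein that promotes AMPA receptor removal from synapses, and Vgf, the precursor of secreted neuropeptides, are effectors rather than transcription factors. Pv neurons are the fast-spiking inhibitory interneurons of the cortex, and their immediate early genes are used as markers of recent firing. Thyroid hormone receptor alpha is the product of Thra. It activates genes when hormone is bound and represses them without hormone.

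PTU_TH and PTU libraries held 12957838 to 19141683 counts and Mut and Ctrl libraries 22333742 to 32571175. Levels below are CPM, a gene's counts per 1000000 counts of its library, and fold changes are from edgeR quasi-likelihood fits scaled by TMM. Hr, a direct target of the receptor, averaged 46.0 ± 2.7 CPM in PTU_TH and 3.92 ± 1.79 CPM in PTU libraries (SD). It averaged 1.76 ± 1.62 CPM in Mut and 14.1 ± 1.4 CPM in Ctrl libraries (SD, n = 4 each). Both differences were called by edgeR (adjusted p = 0.00251 after hormone and 0.0259 in Mut). Thra itself averaged 31.9 ± 3.8 CPM in Mut and 56.7 ± 6.1 CPM in Ctrl libraries (SD, n = 4 each; edgeR adjusted p = 0.028), and gene counts do not tell its alleles apart. The calls of Hr and Thra in Mut were each lost in 6 of 8 omissions of a library, with log2 fold changes of −3.83 to −2.73 for Hr and −0.93 to −0.78 for Thra. They were also lost with the Y-linked class as a covariate (edgeR adjusted p = 0.0658 for Hr and 0.12 for Thra), and that of Thra with the replicate block (0.0514), at log2 fold changes of −3.38 for Hr and −0.83 and −0.84 for Thra. Counts from 4 Y-linked genes, summed to over 50 CPM, were present in PTU_TH replicates 3 and 4, PTU replicates 6 and 7, Mut replicates 1, 2 and 3, and Ctrl replicate 2. The other libraries are below called those without Y-linked counts. Their sums were 0 in PTU_TH and PTU libraries and 2.44 to 3.19 CPM in Mut and Ctrl libraries. Genes longer than 100000 bases took 24.9% to 40.7% of the counts in the PTU set and 27.4% to 39.7% in Mut and Ctrl. The 14 Pv neuron genes listed summed to 7986 to 9305 CPM in PTU_TH, 7738 to 9459 CPM in PTU, 10361 to 11783 CPM in Mut and 9297 to 11254 CPM in Ctrl libraries, and none was at 0. The titles number separate mice, and in each of the 21 pairs of libraries within a group the chi-square per degree of freedom was 7.2 or more, so none was counted as a repeat of another.

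The promoters of the members were read for the sites through which activity is known to reach them. RefSeq promoter windows on GRCm38.p6, from 250 bases before the start to 50 after it, were matched for 7 members: Fos, Fosb, Junb, Npas4, Nr4a1, Nr4a2 and Nr4a3. Windows of 3 of them are shown. Nr4a1 and Nr4a2 are the receptor genes whose groups separated in the comparisons below, and Fos is the classic gene of the class. Capitals mark TGACG, the core of the cAMP response element, or CGTCA, the same core on the other strand.
Nr4a2: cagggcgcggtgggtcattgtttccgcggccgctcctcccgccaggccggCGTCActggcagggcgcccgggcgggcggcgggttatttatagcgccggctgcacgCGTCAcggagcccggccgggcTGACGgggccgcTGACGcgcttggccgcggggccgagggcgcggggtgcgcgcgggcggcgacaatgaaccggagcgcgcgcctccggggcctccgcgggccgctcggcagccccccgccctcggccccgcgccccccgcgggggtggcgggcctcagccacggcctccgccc
Nr4a1: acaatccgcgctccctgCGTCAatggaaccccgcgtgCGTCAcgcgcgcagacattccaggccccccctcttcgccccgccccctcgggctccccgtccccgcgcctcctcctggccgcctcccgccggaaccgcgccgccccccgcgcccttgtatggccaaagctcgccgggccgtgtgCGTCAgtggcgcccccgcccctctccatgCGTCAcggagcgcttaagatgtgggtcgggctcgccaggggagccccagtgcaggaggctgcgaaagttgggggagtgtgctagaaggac
Fos: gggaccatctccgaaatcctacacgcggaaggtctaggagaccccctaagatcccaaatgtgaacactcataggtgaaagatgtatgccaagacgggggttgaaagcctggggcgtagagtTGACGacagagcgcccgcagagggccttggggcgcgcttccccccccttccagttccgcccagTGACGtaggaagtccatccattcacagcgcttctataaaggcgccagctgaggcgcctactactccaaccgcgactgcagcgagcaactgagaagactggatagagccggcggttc
The Nr4a2 window is chr2:57123954-57124253 on the minus strand, the Nr4a1 window chr15:101266596-101266895 on the plus strand and the Fos window chr12:85473640-85473939 on the plus strand. Each sequence reads 5′ to 3′ along its gene. The Nr4a1 window lies inside the annotated gene, chr15:101254269-101274795, so the start it is placed on is not the most upstream one.

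TGACG on either strand was found in 7 of the 7 windows. Nr4a1, Nr4a2 and Nr4a3 each held 4 copies, Fos and Npas4 held 2 copies, and Fosb and Junb held 1. The copies in Nr4a1 lay from position −233 to −40 relative to the start, and those in Nr4a2 from −200 to −111. Of all 32851 RefSeq mouse windows of this length, 20.8% held the core. The member windows were 58.7% to 81.7% G or C, against a median of 52.7% over all windows, and among the 10327 windows in that range the share with the core was 31.6%. The complete palindrome TGACGTCA was in 0 of the 7 windows and in 1.79% of all windows, and it contains the core on both strands. GCGNGGGCG, a motif of Egr factors, was in 3 windows, those of Nr4a2, Fosb and Nr4a1, and in 5.55% of all. Its fixed letters are all G or C, and its share among windows in the members' G or C range was not computed. TGANTCA, the AP-1 motif, was in 0 of the 7 windows and in 7.81% of all. AAAGGTCA, the motif that NR4A receptors bind as monomers, was in 0 and in 1.51% of all, and the AGGTCA it contains, the motif shared by many nuclear receptors, was in 0 and in 16.3% of all. The CArG box, bound by serum response factor, was in 0 of the 7 windows and in 1.63% of all. All searches covered both strands, and a match describes the letters of these windows, not binding. Sites outside the windows were not read, so a motif missing here may lie farther from the start. Egr1, Arc and Vgf had no window, and their promoters were not read.

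**Figure D1:**
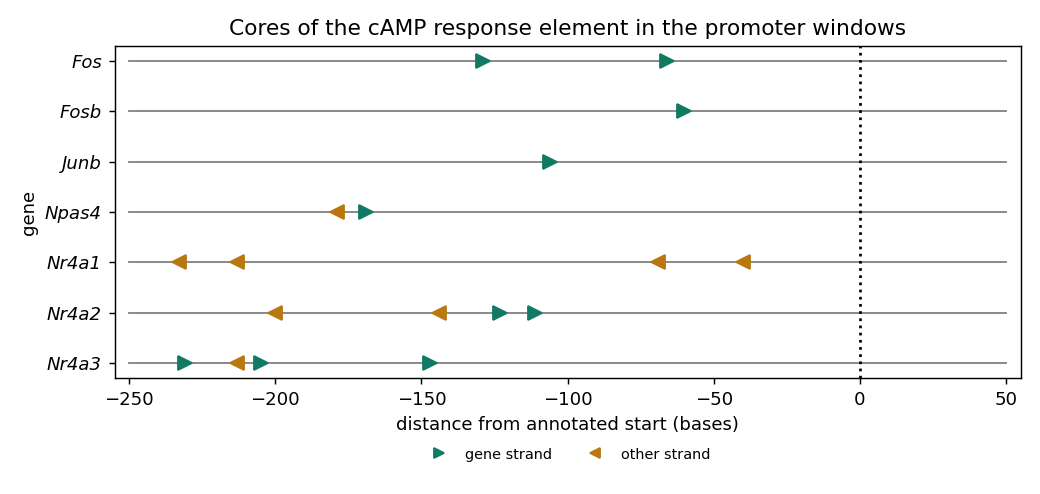
Positions of the TGACG core in the 7 promoter windows, by distance from the annotated start in bases, with 1 line per gene; right-pointing triangles lie on the gene's strand and left-pointing ones on the other. The 3 Nr4a genes hold 4 cores each, and Fosb and Junb hold 1 each.

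In untreated Ctrl nuclei the members differed widely in level. On the scale of CPM per 1000 exonic bases, Vgf was highest at 33.6 ± 11.3 (SD, n = 4), with 21.4 in its lowest library. Egr1 followed at 6.00 ± 1.43 CPM per 1000 bases and Junb at 5.07 ± 0.58. Nr4a1, Arc and Fos lay at 3.63 ± 0.80, 3.35 ± 1.47 and 2.89 ± 1.00 CPM per 1000 bases. The ranges of neighbours overlapped from Egr1 down to Fos, so their order is not set beyond the spread of the libraries. Nr4a3 at 0.644 ± 0.467, Npas4 at 0.558 ± 0.232 and Nr4a2 at 0.332 ± 0.141 CPM per 1000 bases formed a lower tier whose ranges overlapped, and Nr4a3 reached 1.29 in its highest library, below the 1.38 of Arc in its lowest. Fosb was lowest, at 0.101 ± 0.049 CPM per 1000 bases, and its highest library overlapped the range of Nr4a2. Exonic lengths are those of GENCODE M21. In bulk nuclei, fewer active cells and less RNA per active cell cannot be told apart.

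After hormone injection, 0 of the 9 members tested passed an adjusted p of 0.05 in edgeR and 0 in DESeq2, against 0.281% of the 15288 genes tested in edgeR. With limma-voom and quality weights, 1 member, Vgf, was called. DESeq2 called 1.61% of all genes and limma-voom 1.12%. The 2 members with the smallest p both had lower means in PTU_TH: Vgf, by 2.06-fold, and Nr4a1, by 1.40-fold. At an unadjusted p under 0.05, 2 of the 9 were lower and 0 were higher, where 3.47% of all genes were lower at that level. Of the 9, 6 had a negative log2 fold change, where 50.5% of all genes did. The median log2 fold change was −0.11 over the members and −0.003 over all genes, and leaving out single libraries gave member medians of −0.32 to −0.04. Fosb was too low for the filter in these 7 libraries.

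Vgf, the secreted neuropeptide precursor, had 39.8, 32.0, 51.5 and 90.5 CPM in PTU_TH libraries, against 64.0, 128.6 and 145.9 CPM in PTU libraries. The groups overlapped because PTU_TH replicate 4 lay above PTU replicate 5. Vgf had a log2 fold change of −1.05 ± 0.32 (SE; unadjusted p = 0.0102, edgeR adjusted p = 0.396). PTU replicate 5, the lowest of its group, was the 1 PTU library without Y-linked counts. Among libraries with those counts, Vgf averaged 71.0 CPM in PTU_TH and 137.3 CPM in PTU; among those without, it averaged 35.9 CPM in PTU_TH and was 64.0 CPM in the 1 PTU library. With the Y-linked class as a covariate, where 2.19% of all genes were called, the log2 fold change was −0.90 and the edgeR adjusted p was 0.00439. With the share of counts in long genes as a covariate, where 6.61% of all genes were called, the values were −0.94 and 2.1e-05, and with limma-voom quality weights −1.34 and 0.0215. These 2 covariates divide the libraries alike, so their fits are not independent. Long genes took 34.1%, 40.7% and 39.6% of counts in PTU_TH replicates 1 and 2 and PTU replicate 5, which had no Y-linked counts. In the other PTU_TH and PTU libraries they took 24.9% to 28.4%. Over 8 alternatives the adjusted p of Vgf ran from 2.1e-05 to 0.795, and 3 of them called it.

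Nr4a1, an orphan nuclear receptor also called Nur77, had 14.54, 21.05, 14.97 and 14.62 CPM in PTU_TH libraries, against 23.3, 24.4 and 23.5 CPM in PTU libraries. It was the 1 member whose groups did not overlap, in the lower direction, as was so for 3.82% of all genes. Its log2 fold change was −0.48 ± 0.20 (SE; edgeR adjusted p = 0.637), and the exact two-sided permutation test over libraries gave p = 0.0571, where 0.0286 is the smallest possible. The long gene covariate called it (log2 fold change −0.56, edgeR adjusted p = 0.0174), and the other 7 alternatives did not. Its relatives differed less. Nr4a2, known for its role in dopamine neurons, had 1.29, 2.25, 3.09 and 5.17 CPM in PTU_TH libraries, against 3.11, 2.83 and 3.69 CPM in PTU libraries, a log2 fold change of −0.11 ± 0.39 (SE). Nr4a3 had 0.77 to 2.81 CPM in PTU_TH and 1.52 to 2.91 CPM in PTU libraries. For both, the PTU_TH libraries spread across the PTU values.

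The AP-1 and Egr factors varied as much within as between the groups. Fos had 7.73, 4.81, 3.16 and 8.05 CPM in PTU_TH libraries, against 6.80, 4.77 and 10.7 CPM in PTU libraries. Junb averaged 12.5 ± 3.6 CPM in PTU_TH (SD, n = 4) and 13.7 ± 5.8 CPM in PTU (SD, n = 3). Fosb had 3, 3, 2 and 4 counts in PTU_TH libraries, against 1, 10 and 6 counts in PTU libraries, too few to order the groups. Egr1 averaged 19.1 ± 5.0 CPM in PTU_TH (SD, n = 4) and 24.2 ± 5.1 CPM in PTU (SD, n = 3). The log2 fold changes were −0.28 ± 0.37 for Fos, −0.10 ± 0.27 for Junb and −0.30 ± 0.21 for Egr1 (SE), none called by edgeR. The sign of Fos turned without PTU replicate 7 and that of Junb without PTU_TH replicate 2 or PTU replicate 7. Leaving out single libraries gave −0.47 to −0.17 for Egr1. Arc and Npas4 had positive log2 fold changes, of 0.27 ± 0.26 and 0.34 ± 0.38 (SE), and leaving out single libraries gave 0.14 to 0.46 for Arc. Arc had 20.7, 18.5, 11.8 and 26.4 CPM in PTU_TH libraries, against 18.2, 16.4 and 14.5 CPM in PTU libraries, with its lowest and its highest values both in PTU_TH. Npas4 had 2.51 to 3.29 CPM in PTU_TH and 1.17 to 3.04 CPM in PTU libraries.

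**Figure D2:**
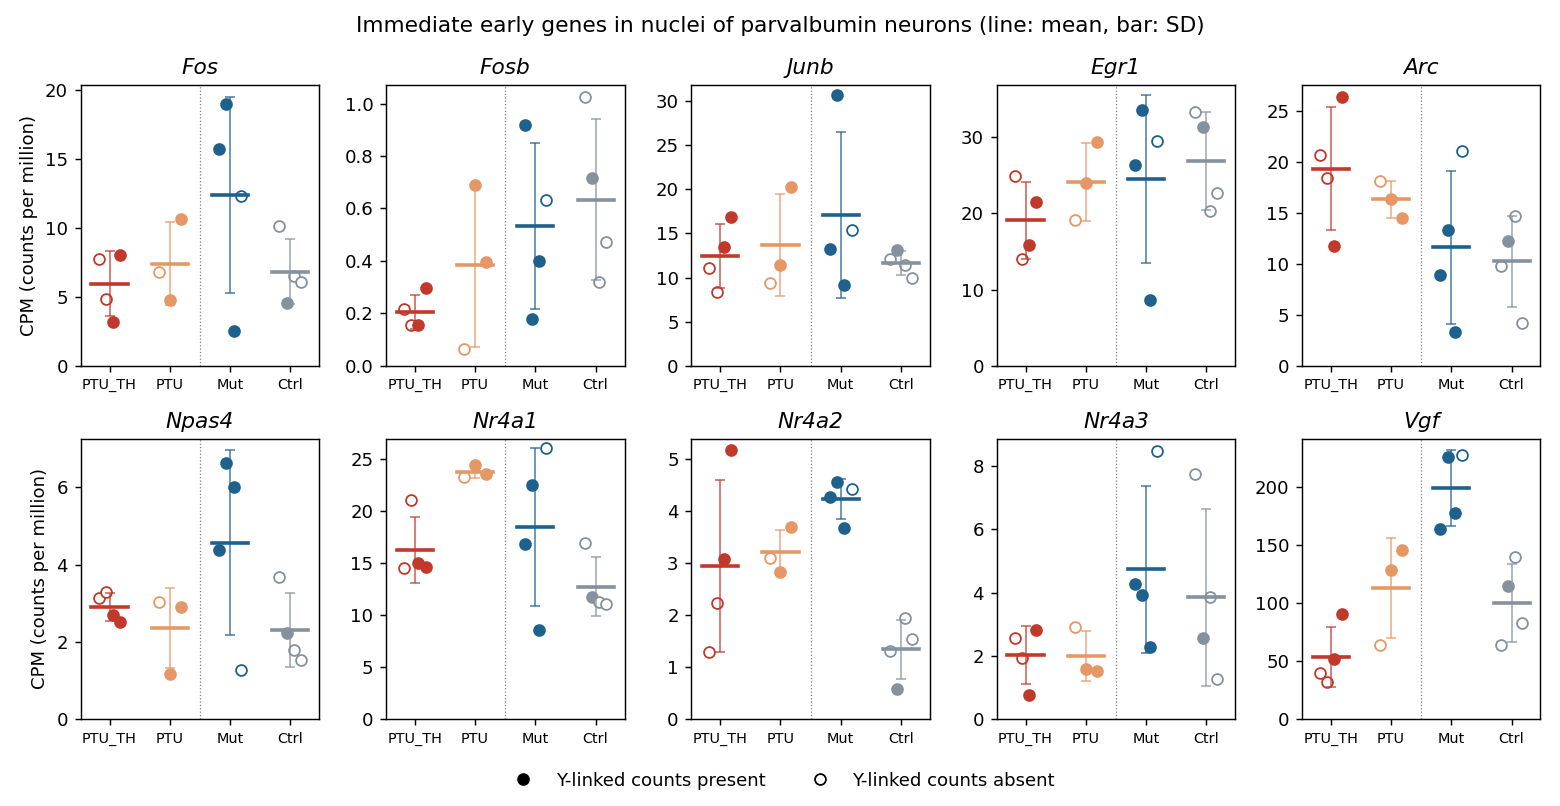
CPM of each member (y axis, from 0, a scale per gene) in PTU_TH, PTU, Mut and Ctrl libraries; points are libraries, filled where Y-linked counts were present, and lines and bars are the mean and SD. Vgf and Nr4a2 in Mut lie wholly above Ctrl, and Nr4a1 in PTU_TH lies wholly below PTU.

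In mice with the dominant negative receptor, 8 of the 10 members had a positive log2 fold change against untreated littermates, where 52.3% of the 16949 genes tested did. None passed an adjusted p of 0.05 in edgeR, against 0.348% of all genes, while DESeq2 and limma-voom each called 2, against 2.11% and 1.95% of all genes. At an unadjusted p under 0.05, 2 members were higher, where 4.2% of all genes were. Vgf and Nr4a2 made up each of these pairs, and they were the members whose Mut and Ctrl libraries did not overlap, which held in the higher direction for 2.57% of all genes. The median log2 fold change was 0.51 over the members and 0.01 over all genes, and leaving out single libraries gave member medians of 0.40 to 0.77.

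Vgf had 164, 226, 178 and 227 CPM in Mut libraries, against 63.6, 114, 139 and 82.6 CPM in Ctrl libraries. Every Mut library was above every Ctrl library. The log2 fold change was 0.98 ± 0.21 (SE, n = 4 each; unadjusted p = 0.000581, edgeR adjusted p = 0.0784). DESeq2 called it (adjusted p = 0.000822), as did limma-voom with quality weights (0.0385) and edgeR with the long gene covariate (0.0318), which called 1.24% of all genes, and with the replicate block (0.0384), which called 0.484%, and over 9 alternatives its adjusted p ran from 0.000822 to 0.211. Y-linked counts were present in Mut replicates 1, 2 and 3 and in Ctrl replicate 2, and with that class as a covariate Vgf was not called. Without any 1 library, the log2 fold change of Vgf was 0.83 to 1.18. Vgf is 6960 bases long with 2973 exonic bases and lies at chr5:137026392-137033351 on the plus strand.

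Nr4a2 had 4.27, 4.57, 3.68 and 4.43 CPM in Mut libraries, against 1.31, 0.59, 1.95 and 1.54 CPM in Ctrl libraries. The Mut libraries lay close together, and the lowest of them was above the highest Ctrl library. Nr4a2 had a log2 fold change of 1.63 ± 0.37 (SE; unadjusted p = 0.000836, edgeR adjusted p = 0.0958), the largest of the members. The exact two-sided permutation test gave p = 0.0286 for Vgf and for Nr4a2, the smallest that 4 libraries against 4 allow. DESeq2 (adjusted p = 0.00169), limma-voom (0.0257) and 1 edgeR fit of all groups (0.0466), which called 1.13% of all genes, called Nr4a2, and over 9 alternatives its adjusted p ran from 0.00169 to 0.12. With the Y-linked class as a covariate Nr4a2 was not called. Nr4a1 and Nr4a3, the other 2 receptors of the family, overlapped between the groups. Nr4a1 had 16.8, 22.5, 8.57 and 26.0 CPM in Mut libraries, against 16.9, 11.7, 11.2 and 11.1 CPM in Ctrl libraries. Nr4a3 had 4.27, 3.94, 2.27 and 8.48 CPM in Mut libraries, against 7.73, 2.56, 3.86 and 1.26 CPM in Ctrl libraries. Nr4a1 in Mut ran from below all Ctrl libraries to above them all, and the ranges of Nr4a3 covered nearly the same span in both groups.

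Among the AP-1 genes, Fos had 15.7, 19.0, 2.52 and 12.3 CPM in Mut libraries, against 10.1, 4.54, 6.49 and 6.07 CPM in Ctrl libraries. Mut replicates 1, 2 and 4 were above all Ctrl libraries and Mut replicate 3 was below them all. The log2 fold change of Fos was 0.83 ± 0.48 (SE; edgeR adjusted p = 0.72). Junb showed the same spread, with 13.2, 30.7, 9.12 and 15.4 CPM in Mut libraries, against 12.1, 13.2, 11.5 and 9.97 CPM in Ctrl libraries. Junb shares 173 exonic bases, 7.52% of its exons, with Prdx2 on the opposite strand, so some of its counts may be shared in a counting whose strand setting is not given. Fosb averaged 0.532 ± 0.317 CPM in Mut and 0.632 ± 0.307 CPM in Ctrl (SD, n = 4 each). Npas4 had 4.39, 6.63, 6.02 and 1.27 CPM in Mut libraries, against 3.68, 2.23, 1.79 and 1.54 CPM in Ctrl libraries. Here 3 Mut libraries were above all Ctrl libraries and Mut replicate 4 was below them, for a log2 fold change of 0.95 ± 0.47 (SE; edgeR adjusted p = 0.626). Mut replicate 4 is the 1 Mut library without Y-linked counts. The log2 ratio of Npas4 was 1.35 among libraries with those counts and −0.89 among libraries without them, and with the Y-linked covariate its log2 fold change was 0.27. Egr1 and Arc were spread across both groups: Egr1 averaged 24.5 ± 11.0 CPM in Mut and 26.9 ± 6.4 CPM in Ctrl, and Arc 11.7 ± 7.5 CPM in Mut and 10.3 ± 4.5 CPM in Ctrl (SD, n = 4 each).

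The hormone and mutant comparisons share no libraries, so their difference was tested directly. Vgf was the 1 member called, with the hormone effect lower than the mutant effect by a log2 difference of −2.04 ± 0.41 (SE; unadjusted p = 0.000124, edgeR adjusted p = 0.0132). Of the 17317 genes tested, 1.93% were called. The call held without each of 14 of the 15 libraries, and without PTU replicate 7 the difference was −1.82 with an adjusted p of 0.0512. It also held with RLE scaling, with the Y-linked class and with the long gene share as covariates, where the difference was −2.02, −1.79 and −1.95 and 2.01%, 2.07% and 5.62% of all genes were called. Of the 10 members, 9 had a negative difference, and Arc, at 0.10, was the exception. A negative difference was found for 9138 of the 17317 genes tested. The median difference was −0.63 over the members and −0.03 over all genes. Nr4a2 at −1.75 ± 0.55 and Nr4a1 at −1.01 ± 0.40 (SE) did not pass (edgeR adjusted p = 0.14 and 0.301). All the members' values take part in 1 comparison of the same 15 libraries, so their signs are not independent of each other.

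**Figure D3:**
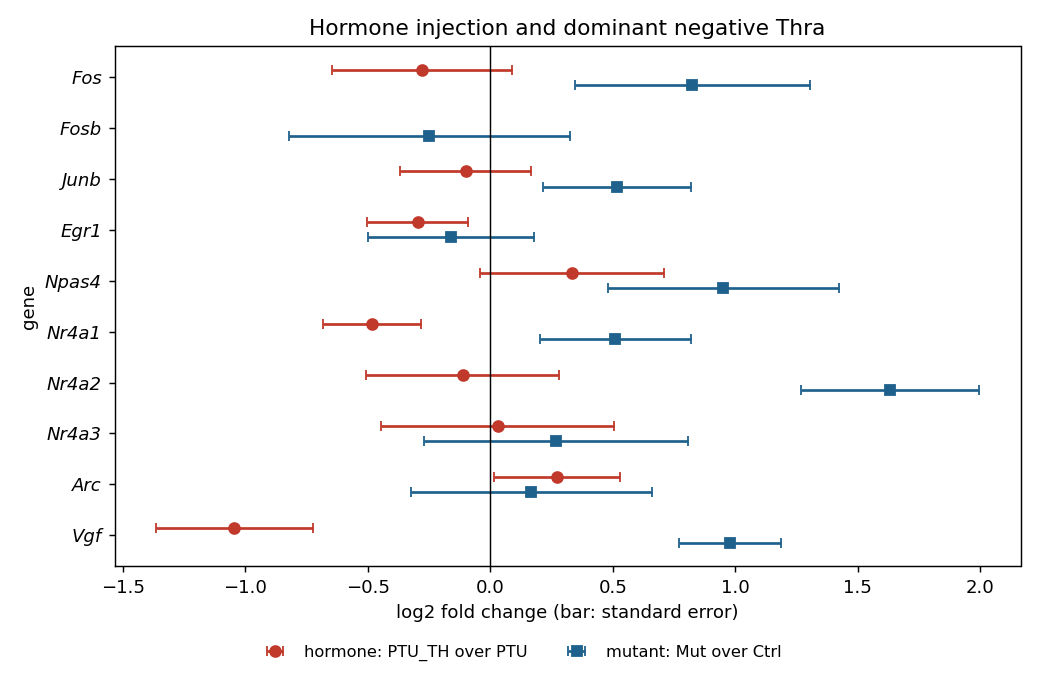
Log2 fold change (x axis) of each member for PTU_TH over PTU (circles) and Mut over Ctrl (squares), with bars of 1 standard error. Vgf lies at −1.05 in the hormone comparison and 0.98 in the mutant comparison, and Fosb was not tested in the hormone comparison.

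Against untreated mice, the diet alone and the diet with hormone gave a different pattern. These comparisons cross the 2 deposited sets, where gene lists differ, so set and treatment cannot be told apart, and 17.0% of 16496 genes were called for PTU against Ctrl and 17.8% of 15814 for PTU_TH against Ctrl. Both comparisons share the Ctrl libraries. Nr4a1 rose in PTU, to 23.7 ± 0.6 CPM (SD, n = 3), against 12.7 ± 2.8 CPM in Ctrl (SD, n = 4), a log2 fold change of 0.85 ± 0.20 (SE; edgeR adjusted p = 0.0124). It was the 1 member called there. Without PTU replicate 6 its adjusted p was 0.0512, and in 1 fit of all groups it was 0.0543, where 18.2% of all genes and Nr4a2 were called. In PTU_TH against Ctrl, Nr4a1 had a log2 fold change of 0.35 ± 0.22 (SE; edgeR adjusted p = 0.328). Nr4a2 had log2 fold changes of 1.21 ± 0.40 in PTU and 1.08 ± 0.44 in PTU_TH (SE; edgeR adjusted p = 0.0601 and 0.122). Its PTU libraries, 2.83 to 3.69 CPM, lay above all Ctrl libraries, as those of 9.01% of all genes did. DESeq2, limma-voom, the Y-linked covariate and the long gene covariate each called both Nr4a1 and Nr4a2 in PTU, where they called 20.0%, 34.3%, 16.8% and 24.3% of all genes.

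Vgf differed from both receptors. In PTU it averaged 113 ± 43 CPM (SD, n = 3), inside the 63.6 to 139 CPM of the Ctrl libraries, a log2 fold change of 0.13 ± 0.27 (SE; edgeR adjusted p = 0.809) that was negative without PTU replicate 7 or without Ctrl replicate 1. In PTU_TH it fell to 53.4 ± 25.9 CPM (SD, n = 4), a log2 fold change of −0.94 ± 0.28 against Ctrl (SE; edgeR adjusted p = 0.0336), and it was the 1 member called. That call was lost without PTU_TH replicates 1, 2 or 3 or Ctrl replicates 2 or 3, each left out singly, where the log2 fold change was −0.74 to −0.92 and the adjusted p reached 0.111. DESeq2 and the long gene covariate each called Arc besides Vgf in PTU_TH, where they called 21.5% and 28.7% of all genes. The median of the members was 0.10 in PTU and 0.06 in PTU_TH, against −0.02 over all genes in both.

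Deviations from the group mean were shared by several members within single libraries. In Mut replicate 3, 9 of the 10 members were below the Mut mean on the log2(CPM + 1) scale, by 0.65 on average, and Fos, Junb, Egr1, Arc and Nr4a1 had there their lowest value of the 8 Mut and Ctrl libraries. Mut replicate 2 held the highest value of those 8 for Fos, Junb, Egr1, Npas4 and Nr4a2, and Mut replicate 4 for Arc, Nr4a1, Nr4a3 and Vgf. In the PTU set, 8 of the 10 members were above the group mean in PTU_TH replicate 4, and PTU replicate 7 held the highest values of Fos, Junb, Egr1 and Vgf of those 7 libraries. Ctrl replicate 1 had 9 of 10 above its group mean and Ctrl replicate 4 had 9 of 10 below it. Without Mut replicate 3 the median log2 fold change of the members in Mut was 0.73. Egr1, negative with all libraries at −0.16, was then 0.12.

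**Figure D4:**
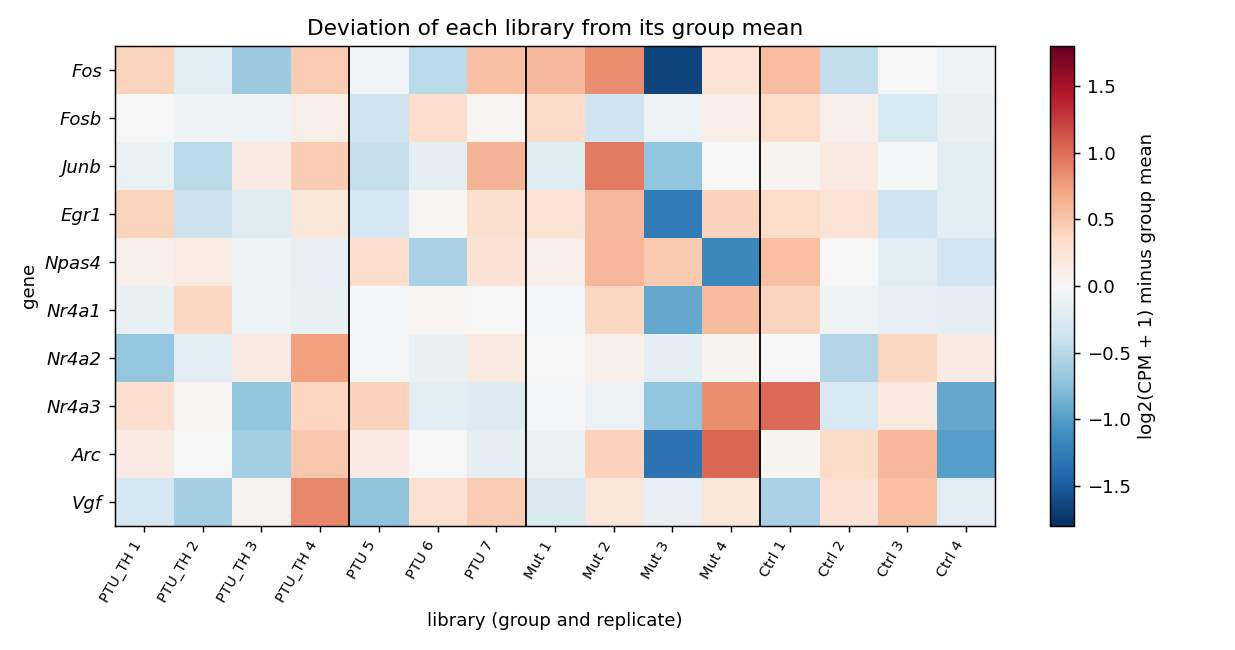
Deviation of each library (columns, ordered by group) from its group mean for each member (rows), in log2(CPM + 1) units; red is above and blue below. Mut replicate 3 is below the mean for 9 of 10 members, and PTU_TH replicate 4 is above it for 8 of 10.

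The signs were also counted within libraries that did or did not have Y-linked counts. For PTU_TH against PTU, 6 of the 10 members were lower in PTU_TH among libraries with Y-linked counts, with a median log2 ratio of −0.26, and 5 of 10 among those without, with a median of −0.04. For Mut against Ctrl, 7 of 10 were higher in Mut with Y-linked counts, with a median of 0.45, and 9 of 10 without, with a median of 0.84. The class with Y-linked counts held 1 Ctrl library, and the class without them 1 Mut library. Vgf was lower in PTU_TH and higher in Mut in each class. Nr4a2 averaged 4.17 CPM in Mut and was 0.589 CPM in the 1 Ctrl library with Y-linked counts, and it was 4.43 CPM in the 1 Mut library and averaged 1.60 CPM in Ctrl without them.

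Other genes of the activity response were read from lists. Of 37 further immediate early genes, 31 were measured in PTU_TH against PTU. A negative log2 fold change was found for 20 of them, against 50.5% of all genes, and the median was −0.21. At an unadjusted p under 0.05, 3 were higher and 3 were lower, where 595 and 531 of all 15288 genes were. Trib1, a pseudokinase that directs proteins to degradation, was the 1 called by edgeR. It rose to 9.44 ± 1.84 CPM in PTU_TH (SD, n = 4), against 3.27 ± 0.59 CPM in PTU (SD, n = 3; log2 fold change 1.59, edgeR adjusted p = 0.0448). That call was lost in each of the 7 omissions of a library, with an adjusted p of 0.0541 to 0.249 and a log2 fold change of 1.49 to 1.72. Besides Trib1, DESeq2 called Ccn1 and limma-voom called Jun. Jun was lower, at 5.89 ± 2.09 CPM in PTU_TH (SD, n = 4), against 12.2 ± 4.3 CPM in PTU (SD, n = 3). Its log2 fold change was −1.01 ± 0.29 (SE, edgeR adjusted p = 0.353). In Mut against Ctrl, 22 of 31 were positive, against 52.3% of all genes, with a median of 0.28 and 0 called by edgeR. At an unadjusted p under 0.05, 1 was higher and 3 were lower, where 712 and 769 of all 16949 genes were. DESeq2 called 3 and limma-voom 4, Trib1 and Arl4d among them, where they called 2.11% and 1.95% of all genes. Trib1 at −1.26 and Arl4d, a small GTPase, at −1.10 had the smallest p there (edgeR adjusted p = 0.0719 and 0.0814). Both ran opposite to Vgf: their hormone effect exceeded their mutant effect by 2.83 ± 0.36 for Trib1 and 2.02 ± 0.38 for Arl4d on the log2 scale (SE; edgeR adjusted p = 0.000312 and 0.00737). They were the 2 of 32 list members called in that test, and both stayed called in all 15 omissions of a library.

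Of the 20 delayed activity genes, which encode mainly secreted and synaptic proteins, 18 were measured in PTU_TH against PTU. Of these, 10 were negative, against 50.5% of all genes, with a median of −0.08. At an unadjusted p under 0.05 there was 1, and 0 were called by edgeR, DESeq2 or limma-voom. Gpr3, a receptor that raises cAMP, had the smallest p, at 39.3 ± 7.8 CPM in PTU_TH (SD, n = 4) and 31.0 ± 3.4 CPM in PTU (SD, n = 3; edgeR adjusted p = 0.561). In Mut against Ctrl, 15 of 19 were positive, against 52.3% of all genes, with a median of 0.37. At an unadjusted p under 0.05, 6 were higher, against 4.2% of all genes, and 0 were lower. By edgeR or limma-voom 0 were called. DESeq2 called 2, Scg2 and Rgs4. Scg2, like Vgf a cargo of dense-core vesicles and a member of the granin family, had 295, 336, 256 and 308 CPM in Mut libraries, against 173, 192, 242 and 222 CPM in Ctrl libraries. These groups did not overlap (log2 fold change 0.52 ± 0.13, SE; edgeR adjusted p = 0.141). Rgs4, which shortens G protein signals, averaged 58.9 ± 12.9 CPM in Mut and 37.9 ± 5.7 CPM in Ctrl (SD, n = 4 each; edgeR adjusted p = 0.153). In the hormone comparison Scg2 had a log2 fold change of −0.65 and Rgs4 of −0.65 (edgeR adjusted p = 0.692 and 0.811), and with the long gene covariate Rgs4 was called (−0.52, edgeR adjusted p = 0.00257). The difference of the effects was −1.18 for Scg2 and −1.29 for Rgs4 and was called for neither (edgeR adjusted p = 0.0811 and 0.138).

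The signalling genes upstream of the members, among them kinases, CREB and its coactivators, were measured for 31 of 32 in both comparisons. The 1 not measured was Srf, which encodes serum response factor and was at 0 in all libraries. By edgeR 0 of the 31 were called in either comparison. At an unadjusted p under 0.05 there were 4 after hormone and 1 in Mut, where 1126 of 15288 and 1481 of 16949 genes were. Camkk2, a calcium/calmodulin-dependent kinase kinase, had log2 fold changes of 0.49 ± 0.10 after hormone and −0.28 ± 0.13 in Mut (SE), and DESeq2 and limma-voom called it after hormone. Elk3, an ETS factor that partners serum response factor, had −0.69 ± 0.29 after hormone, and Hdac4, a histone deacetylase, −0.39 ± 0.17 in Mut (SE; edgeR adjusted p = 0.621 and 0.534). The Camkk2 difference of 0.76 was called (edgeR adjusted p = 0.0284) and was lost in 8 of 15 omissions, without PTU_TH replicates 1 or 3, PTU replicate 7, Mut replicates 1 or 4, or Ctrl replicates 2, 3 or 4, where it was 0.67 to 0.77. Stress and heat shock genes, another class that cells induce rapidly, had 0 of 16 called by edgeR, DESeq2 or limma-voom in both comparisons, with medians of 0.10 after hormone and 0.07 in Mut and 1 at an unadjusted p under 0.05 after hormone, Hspe1, a mitochondrial chaperone (log2 fold change 0.33). Their summed level was 873 to 2219 CPM in PTU_TH, 871 to 1672 CPM in PTU, 1424 to 1918 CPM in Mut and 1224 to 1766 CPM in Ctrl libraries. PTU_TH replicate 4, where 8 members were above the mean, held the highest of these sums; its part in the values of the members was not tested.

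The genes of other cell types that the sorted nuclei could hold were read from lists. The 12 markers of other interneurons summed to 215 to 337 CPM in Mut and 174 to 195 CPM in Ctrl libraries, so that the groups did not overlap. Of the 8 tested, 7 had a positive log2 fold change, against 52.3% of all genes. By edgeR 0 were called, and 2 neuropeptide genes, Npy and Cck, were higher at an unadjusted p under 0.05, where 4.2% of all genes were. Npy averaged 86.5 ± 25.9 CPM in Mut and 52.0 ± 14.2 CPM in Ctrl (SD, n = 4 each). Cck averaged 54.7 ± 20.6 CPM in Mut and 29.8 ± 6.5 CPM in Ctrl (SD, n = 4 each), and DESeq2 and limma-voom called it alone of the list. In PTU_TH and PTU these sums were 103 to 220 and 142 to 223 CPM, and no marker was at 0 in all libraries. After hormone 6 of 8 were negative, against 50.5% of all genes, with a median log2 fold change of −0.35 and 0 at an unadjusted p under 0.05. Tac1, a neuropeptide gene in the Pv neuron list, was called as higher in Mut (log2 fold change 1.17, edgeR adjusted p = 0.0243), and this call held in 1 of 8 omissions, without Mut replicate 2, with log2 fold changes of 0.94 to 1.26 over the 8. With the Y-linked covariate it was 0.999 and was not called (edgeR adjusted p = 0.12). The 14 excitatory neuron markers summed to 346 to 410 CPM in Mut and 370 to 431 CPM in Ctrl libraries, and to 426 to 498 CPM in PTU_TH and 419 to 495 CPM in PTU libraries, with Neurod1 at 0. Camk2a, a kinase gene of excitatory neurons, took 149 ± 27 CPM of this in Mut and 185 ± 19 CPM in Ctrl (SD, n = 4 each). Of the 13 tested, 9 were positive in Mut, against 52.3% of all genes, with a median log2 fold change of 0.15, 0 called by edgeR, DESeq2 or limma-voom and 0 at an unadjusted p under 0.05. After hormone 9 were negative, against 50.5% of all genes, with a median of −0.16, and 0 were called by any of these tools. Emx1 at −1.24 and Fezf2 at −0.95 had an unadjusted p under 0.05, where 3.47% of all genes were lower at that level. The part of these cells in the values of the members was not tested. The 11 endothelial and mural markers summed to 54.2 CPM in Mut replicate 2, which held the highest values of 5 members, and to 11.81 to 18.01 CPM in the other 3 Mut libraries and 14.6 to 27.9 CPM in Ctrl; their part in those values was not tested. Astrocyte markers summed to 388 to 472 CPM in PTU_TH, 388 to 465 CPM in PTU, 418 to 491 CPM in Mut and 428 to 501 CPM in Ctrl libraries. Markers of astrocytes, oligodendrocytes and microglia had 0 called by edgeR in both comparisons, with at most 2 of a list at an unadjusted p under 0.05, and the microglial gene Trem2 was called by DESeq2 and limma-voom in Mut. Oligodendrocyte markers summed to 81.0 to 228 CPM in PTU_TH and 130 to 227 CPM in PTU libraries. After hormone, 7 of 9 astrocyte, 9 of 11 oligodendrocyte and 3 of 8 microglial markers were negative, against 50.5% of all genes. The medians were −0.22, −0.13 and 0.20. In Mut, 6 of 9, 7 of 11 and 5 of 7 were negative, with medians of −0.19, −0.07 and −0.06. The part of these cells in the values of the members was not tested. Gfap and P2ry12, which mark astrocytes and microglia, were at 0 in all libraries. So were Neurod1 and, outside the marker lists, Srf, Csrnp1 and Amigo3. A 0 in all libraries cannot tell absent RNA from a gene that the counting missed.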

How the data were processed

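Fluorescent nuclei were sorted, and their RNA was amplified with SMART-Seq v4 and made into Nextera XT libraries for single-end NextSeq500 sequencing, per the labels. For each of these 15 libraries the authors deposited raw counts per gene symbol. Bowtie2 2.5.3 and HTSeq are named with mm10 (GRCm38), per the submitters' processing notes, and strand setting, counting mode and annotation release are not given there. Without molecular identifiers, copies made in amplification are counted as reads, which can widen the spread of low genes.

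The members and all lists were chosen with earlier results of these data known. Groups follow the titles. Each comparison was fitted with edgeR 4.0.16 in R 4.3.3, using TMM scaling, filterByExpr at a minimum count of 10, the robust quasi-likelihood test and Benjamini-Hochberg adjustment over every gene tested. A gene was called at an adjusted p under 0.05. Between libraries of 1 group the fitted variation was 23.0% of the mean for PTU_TH against PTU and 27.8% for Mut against Ctrl, so small differences were not detectable with 3 or 4 libraries. Fits across both deposited sets used the 46380 symbols they share. Exact permutation tests were two-sided and used log2(CPM + 1). The scripts were tested on simulated data.

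The alternatives were RLE scaling, no filter, a filter at 1 CPM, DESeq2 1.42.0, limma-voom (limma 3.58.1) with quality weights, a single fit of all groups, covariates for the Y-linked class (over 50 CPM summed over the Y-linked genes) and for the share of counts in genes over 100000 bases, a block by replicate number, and leaving out each library. The long gene covariate for the difference of effects was chosen after seeing the data. All 10 members are named. Of each list, the rule names up to 4 called genes by smallest p in a comparison, or the 2 leading genes by p if there was none, with Thra and Hr as checks; those that bear on the members are given. Camkk2 in Mut, Rgs4, Jun and Ccn1 after hormone, and Gfap, P2ry12, Neurod1, Srf, Csrnp1 and Amigo3 at 0 fall outside the rule. Promoter sequences are from RefSeq (GRCm38.p6).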

Additional observations from a re-analysis of the deposited data

Results flagged for a closer look

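In 2 of the 30 groups of 4 libraries examined for the members, 1 library stood apart from the other 3, and both were Nr4a1. PTU_TH replicate 2 had 21.05 CPM of Nr4a1, against 14.54 to 14.97 CPM in the other PTU_TH libraries, a gap of 0.933 of the range of the group. It was still below the lowest PTU library, at 23.3 CPM. Ctrl replicate 1 had 16.9 CPM of Nr4a1, against 11.1 to 11.7 CPM in the other Ctrl libraries, a gap of 0.888 of the range. Chance flags about 1 group in 20, so 2 of 30 is near that rate. Groups of 3 libraries were not examined.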

How the results depend on the processing

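Depth and the number of libraries limited the low members most: Fosb had 1 to 10 counts in PTU_TH and PTU libraries. Of the log2 fold changes of all members in PTU_TH against PTU and Mut against Ctrl, and of Nr4a1, Nr4a2 and Vgf in the other comparisons, under alternatives other than omission, 196 kept their direction and side of the threshold, 16 passed it only there, 2 lost it and 4 changed sign; of those under omission of a library, 207 kept both, 7 lost the threshold and 19 changed sign. The cause of these changes was not tested.

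For PTU_TH against PTU, 43 genes were called, and the count was 246 with DESeq2, 171 with limma-voom, 335 with the sex covariate, which is the Y-linked class, and 1011 with the long gene covariate. Members called were 1 with limma-voom (Vgf), 1 with the sex covariate (Vgf) and 2 with the long gene covariate (Nr4a1 and Vgf). The median of the members was −0.269 with limma-voom, and Nr4a3 was −0.049 with the sex covariate. Omitting single libraries gave 5 to 29 calls and member medians of −0.32 to −0.042, and log2 fold changes of −0.528 to 0.021 for Fos, −0.266 to 0.248 for Junb, −0.0003 to 0.633 for Npas4, −0.467 to 0.119 for Nr4a2 and −0.17 to 0.487 for Nr4a3.

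For Mut against Ctrl, 59 genes were called, and the count was 90 with the filter at 1 CPM, 358 with DESeq2, 331 with limma-voom, 196 with 1 fit of all groups, 31 with the sex covariate and 210 with the long gene covariate. Members called were 2 with DESeq2 and 2 with limma-voom (Nr4a2 and Vgf), 1 with 1 fit of all groups (Nr4a2) and 1 with the long gene covariate (Vgf). Fosb was 0.366 with limma-voom. Omitting single libraries gave 11 to 103 calls, the most without Mut replicate 2, member medians of 0.401 to 0.766, and log2 fold changes of −0.651 to 0.113 for Fosb, −0.315 to 0.12 for Egr1, −0.314 to 0.479 for Arc and −0.192 to 0.894 for Nr4a3. With the replicate block, 82 genes and 1 member, Vgf (log2 fold change 1.025, edgeR adjusted p = 0.0384), were called, and the member median was 0.419. The correlations of deviations between same-numbered libraries were 0.116, 0.202, −0.021 and 0.085 across 16949 genes, and 5 of 8 libraries correlated best with their own number, so not every pair was over 0.1; the match of the 5 is a hint from the data, and the titles do not say that a number marks a litter.

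For PTU against Ctrl, 5653 genes were called with limma-voom. DESeq2, limma-voom, the sex covariate and the long gene covariate each called 2 members (Nr4a1 and Nr4a2), where they called 20.0%, 34.3%, 16.8% and 24.3% of all genes. Vgf was −0.171 with the sex covariate and −0.133 with the long gene covariate. Omitting single libraries gave 2061 to 4283 calls, 0 to 1 members, member medians of −0.155 to 0.359 and −0.075 to 0.374 for Vgf. For PTU_TH against Ctrl, 4536 genes were called with the long gene covariate, and 0 members without a filter. DESeq2 and the long gene covariate each called 2 members (Arc and Vgf), where they called 21.5% and 28.7% of all genes. The member median was −0.089 without a filter and −0.083 in 1 fit of all groups. Omitting single libraries gave 0 to 1 members and medians of −0.225 to 0.105. For the difference of the hormone and mutant effects, 973 genes were called with the long gene covariate, and omitting single libraries gave 208 to 396 calls, 0 to 1 members and medians of −0.964 to −0.51.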
